A study of Capra hircus with 13 samples.

Results

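The genes described here encode the subunits of the mitochondrial oxidative phosphorylation complexes that are carried by the nuclear genome, measured as mRNA in goat (Capra hircus) oocytes and early embryos. They were chosen by name alone, as the genes called NDUFA, NDUFB, NDUFC, NDUFS or NDUFV with a number, *SDHA* to *SDHD*, and the genes starting with ATP5, and 59 of the 18138 gene names listed for all 13 libraries fell under this rule. Of these, 38 belong by name to complex I, 4 to complex II and 17 to complex V, and complexes III and IV are not analysed here. Of the 59 genes, 2 carry such a name without being regarded as subunits of ATP synthase (*ATP5S* and *ATP5SL*), and *NDUFA4* is nowadays counted with complex IV.

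The study compared MII oocytes with 4- and 8-cell stage embryos, and embryos with and without knockdown of *YTHDF2*, a reader of the m6A mark on mRNA. There are 3 untreated libraries each of MII oocytes, 4-cell embryos and 8-cell embryos, the oocytes matured and the embryos fertilized in vitro. The injected libraries are 2 of 8-cell stage embryos given negative control (NC) siRNA and 2 given a mixture of *YTHDF2* siRNAs at 20 µM, each library pooling several embryos whose injection had been done 8 h after fertilization. The control libraries are labelled WT, and are taken as NC because the study names NC siRNA as the control of its knockdown experiments. Read so, the control embryos carry an injection that the untreated embryos do not. No separate cultures are named for replicates, and a p measures only the spread between these libraries.

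Complex I takes electrons from NADH and complex II takes them from succinate. Their transfer along the chain drives protons across the inner mitochondrial membrane, and complex V, the ATP synthase, lets the protons return and makes ATP. Complex I has core subunits that hold the electron path and many accessory subunits around them. Oocytes hold a large store of mitochondria, and the early embryo lives on mitochondria and on many mRNAs that it received from the oocyte.

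Both siRNAs of the knockdown are shown by their antisense strands, the strands that pair with the *YTHDF2* mRNA, 5′ to 3′, with bases 2 to 8, the seed, in capitals, since the comparison of injected embryos rests on them.
s28148: uUGCUAGCaauaucagcccaa
s28147: uGGUCUAUaguauucaugcca
The level of *YTHDF2* was 111.5 and 158.6 FPKM (fragments scaled for exon length and library total) in the NC libraries and 8.07 and 4.47 FPKM in the knockdown libraries.

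The deposited values are FPKM. Depth could be recovered for the untreated libraries, which held 26853876 to 42495116 fragments, of which 48483 to 98838 lay on the 59 genes, and is unknown for the injected ones. The genes used here held 64.7 to 66.2% of the fragments of the MII libraries and 94.6 to 96.8% of those of the embryo libraries, so the scaling of MII against embryos matters below. The log2 values of replicates correlated across genes with r = 0.946 to 0.977 for MII, 0.964 to 0.978 for 4-cell, 0.854 to 0.966 for 8-cell, 0.947 for NC and 0.951 for knockdown libraries. Markers of the oocyte summed to 5803 to 6288 FPKM over 11 genes in MII, 10332 to 11530 in 4-cell, 6460 to 8808 in 8-cell, 1562 to 2593 in NC and 3242 to 5239 FPKM in knockdown libraries, and all were above 0 in each group. Markers of cumulus cells summed to 41.0 to 59.7 FPKM over 8 genes in MII, 51.3 to 65.2 in 4-cell, 84.3 to 127 in 8-cell, 35.0 to 36.6 in NC and 66.8 to 68.8 FPKM in knockdown libraries. Over all libraries *STAR* was at 17.6 to 95.6, *HAS2* at 8.15 to 29.4 and *TNFAIP6* at 0.782 to 19.8 FPKM. *PTX3*, *CYP19A1*, *FSHR* and *INHBA* reached at most 2.35 FPKM. *AMH* was at 0 in the untreated and at 0.03 to 0.39 FPKM in the injected libraries. The part of both lists in the results was not tested. The authors took the untreated libraries from 2 earlier studies without naming which came from where, so stage and source study cannot be told apart. In pooled cells, a change in cell number and a change in RNA per cell cannot be told apart either.

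In the untreated libraries the sum over the 17 complex V genes was 956 to 1676 FPKM, that over the 38 complex I genes 379 to 1420 FPKM, and that over the 4 complex II genes 131 to 245 FPKM. Together the 59 genes took 0.819 to 1.04% of all FPKM in the MII oocytes, 0.528 to 0.580% in the 4-cell and 0.395 to 0.519% in the 8-cell stage embryos. These ranges do not overlap, so the share of summed FPKM on these genes was lower in each library of a later stage than in each of an earlier one. The summed FPKM itself was 2343 to 3000 in MII, 2058 to 2478 in 4-cell and 1474 to 2059 in 8-cell libraries, so neighbouring stages overlapped in it. The share thus also rests on the FPKM of all other genes, and the part of the scaling in its fall was not tested.

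**Figure D1:**
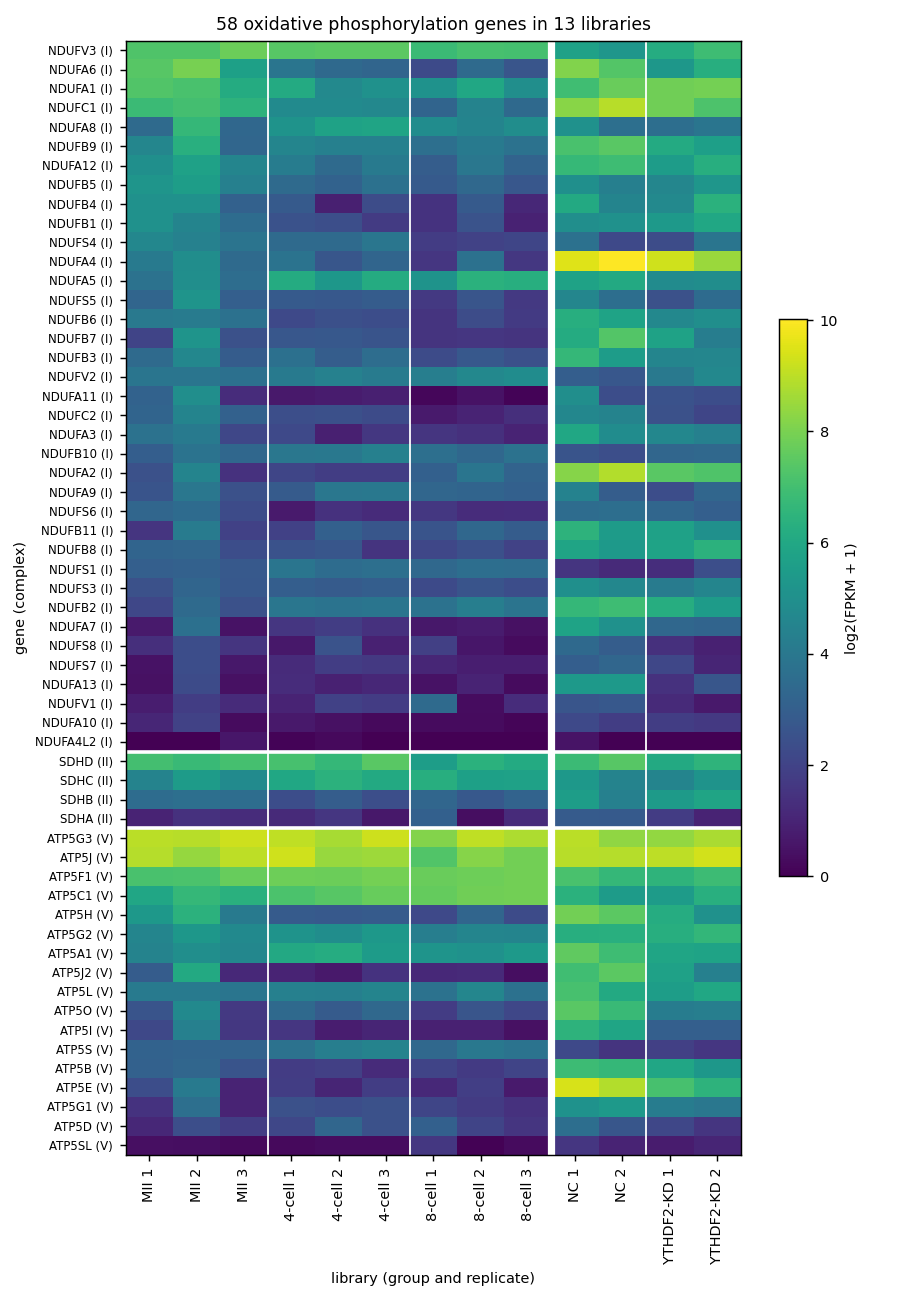
Level of 58 of the 59 genes (rows, complex in brackets, ordered within a complex by the MII mean) in the 13 libraries (columns), as log2(FPKM + 1). The wide gap separates the untreated from the injected libraries, which were normalized apart, and ATP5G3 and ATP5J are bright in all 13.

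Among single genes, *ATP5G3* and *ATP5J* led in most untreated libraries. *ATP5G3*, one of 3 genes for the c subunit that forms the rotating ring of ATP synthase, was at 503, 495 and 610 FPKM in the MII oocytes, 528, 412 and 616 FPKM in 4-cell embryos and 288, 525 and 440.1 FPKM in 8-cell embryos. The groups overlap. The mature protein is the same from all 3 genes, and *ATP5G3* made up 90.8 to 95.8% of their summed FPKM in the untreated libraries, against 73.1 to 82.0% in the injected ones. The 3 genes resemble each other, and the part of read assignment in the split between them was not tested. *ATP5J*, a stalk subunit, was at 473, 343 and 524 FPKM in MII and 157, 293 and 233 FPKM at the 8-cell stage.

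The 4-cell stage was compared with the MII oocytes to see which of these mRNAs had changed before the 8-cell stage. A gene was called where the adjusted p of limma (Benjamini-Hochberg over all genes tested) was under 0.05, and 56 of the 59 genes had a mean of at least 1 FPKM and entered the test. Of these, 15 fell and 7 rose. Among all 9090 genes tested 6.42% fell and 24.7% rose, against 26.8% and 12.5% of the 56 genes. The median log2 fold change was -0.07 over the 56 genes and 0.29 over all genes. By complex it was -0.47 for complex I, 0.01 for complex II and 0.25 for complex V. These medians depended on single libraries and on the scaling. That of complex I was -0.06 without MII replicate 2 and -0.91 without MII replicate 3, and that of complex V was 0.07 without MII replicate 1, 0.08 without MII replicate 3, 0.40 without MII replicate 2, and 0.38 and 0.16 when replicates 2 and 3 of the 4-cell embryos were left out in turn. The complex V median turned to -0.02 with median-ratio rescaling, -0.10 with quantile normalization and -0.25 with a common sum. That of complex II turned to -0.288 with quantile normalization and -0.404 with a common sum. All 4-cell libraries lay below all MII libraries for 16 of the genes (14.1% of all genes) and above them for 11 (37.8% of all genes). The calling rule of the study, an unadjusted p under 0.05 with a change over 2-fold, gave 17 lower and 5 higher genes, against 6.06% and 16.7% of all genes.

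Complex I held 12 of the 15 falls. *NDUFA6*, an accessory subunit that contacts the mitochondrial acyl carrier protein, was at 168, 248 and 51.4 FPKM in the MII oocytes and at 13.9, 9.59 and 8.52 FPKM in the 4-cell stage embryos. Every 4-cell library lay below every MII library, and the log2 fold change was -3.51 ± 0.53 (SE), with an adjusted p of 0.00143. This rested on 1180 to 4730 fragments per MII library and 132 to 216 per 4-cell library. *NDUFC1*, a small accessory subunit, was at 112, 129 and 88.8 FPKM in MII and at 26.7, 27.0 and 24.4 FPKM at the 4-cell stage, a log2 fold change of -2.02 ± 0.30 with an adjusted p of 0.00135. The 4-cell values of *NDUFC1* lay close together and far under the MII values. *NDUFB4*, an accessory subunit of the membrane arm, was at 32.5, 32.9 and 7.70 FPKM in MII and 6.11, 0.833 and 4.02 FPKM at the 4-cell stage. Its groups lie just apart, the log2 fold change was -2.41 ± 0.69 with an adjusted p of 0.0256, and the call was lost without any 1 of 4 libraries (MII replicates 1 and 2, 4-cell replicates 2 and 3), with adjusted p of 0.055 to 0.096.

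The rises of complex I were those of 2 accessory subunits and 1 core subunit. *NDUFA5*, an accessory subunit of the peripheral arm, was at 12.6, 30.3 and 10.9 FPKM in MII and at 70.5, 38.5 and 71.0 FPKM at the 4-cell stage, a log2 fold change of 1.77 ± 0.45 with an adjusted p of 0.0151. *NDUFB2*, of the membrane arm, was at 3.36, 10.1 and 4.62 FPKM in MII and at 14.3, 13.1 and 13.8 FPKM at the 4-cell stage, with a log2 fold change of 1.18 ± 0.33 and an adjusted p of 0.0222. *NDUFS1*, the core subunit with several iron-sulfur clusters, was at 7.27, 7.61 and 6.04 FPKM in MII and at 14.0, 10.8 and 11.7 FPKM at the 4-cell stage, with a log2 fold change of 0.72 ± 0.19 and an adjusted p of 0.0192. All 4-cell values of these 3 genes lay above all MII values, with replicate 2 the highest of the MII libraries each time. The calls were lost with 1 library left out, for *NDUFA5* without MII replicate 1 or 3 or 4-cell replicate 1 or 3 (adjusted p of 0.058 to 0.061), for *NDUFB2* without MII replicate 1 or 3 or any 4-cell replicate (0.051 to 0.087), and for *NDUFS1* without MII replicate 1 or 3 or 4-cell replicate 1 (0.058 to 0.071). All 3 calls were also lost with median-ratio rescaling and with a common sum. Those of *NDUFB2* and *NDUFS1* were lost with quantile normalization too, and that of *NDUFS1* with the replicate block.

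Complex II, which also serves the citric acid cycle, moved in both directions. *SDHB*, the iron-sulfur subunit, fell from 10.8, 11.7 and 10.9 FPKM in MII to 4.16, 6.68 and 4.28 FPKM at the 4-cell stage (log2 fold change -1.03 ± 0.23, adjusted p of 0.00929). *SDHC*, a membrane anchor, rose from 21.1, 44.8 and 26.4 FPKM to 61.8, 86.2 and 66.6 FPKM (log2 fold change 1.25 ± 0.29, adjusted p of 0.0100). Neither gene has overlapping groups. *SDHD*, the other anchor, and *SDHA*, the flavoprotein, overlapped between the groups and had adjusted p of 0.779 and 0.932.

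In complex V, 3 genes rose and 2 fell. *ATP5A1*, the alpha subunit of the head, was at 21.5, 30.3 and 23.8 FPKM in MII and at 64.8, 72.4 and 44.6 FPKM at the 4-cell stage, a log2 fold change of 1.22 ± 0.22 with an adjusted p of 0.00317. *ATP5C1*, the gamma subunit that turns inside the head, was at 59.2, 99.5 and 80.0 FPKM in MII and at 146, 167 and 204 FPKM at the 4-cell stage (1.12 ± 0.21, adjusted p of 0.00408). *ATP5B*, the catalytic beta subunit, went the other way, from 7.56, 8.92 and 5.00 FPKM to 2.43, 2.70 and 1.34 FPKM (-1.37 ± 0.28, adjusted p of 0.00574). Each of these 3 genes has groups that lie apart, so alpha and beta, which stand in equal number in the enzyme, were not changed alike at the mRNA level. *ATP5H*, the d subunit of the peripheral stalk, was at 39.3, 85.5 and 16.7 FPKM in MII and at 6.29, 5.96 and 6.30 FPKM at the 4-cell stage (-2.46 ± 0.51, adjusted p of 0.00599). *ATP5S*, named as a coupling factor, rose from 7.81, 8.37 and 8.06 FPKM to 12.7, 18.4 and 21.2 FPKM (0.99 ± 0.24, adjusted p of 0.0119). *ATP5D* and *ATP5E*, the delta and epsilon subunits of the head, and the 3 c subunit genes had adjusted p of 0.207 to 0.877.

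**Figure D2:**
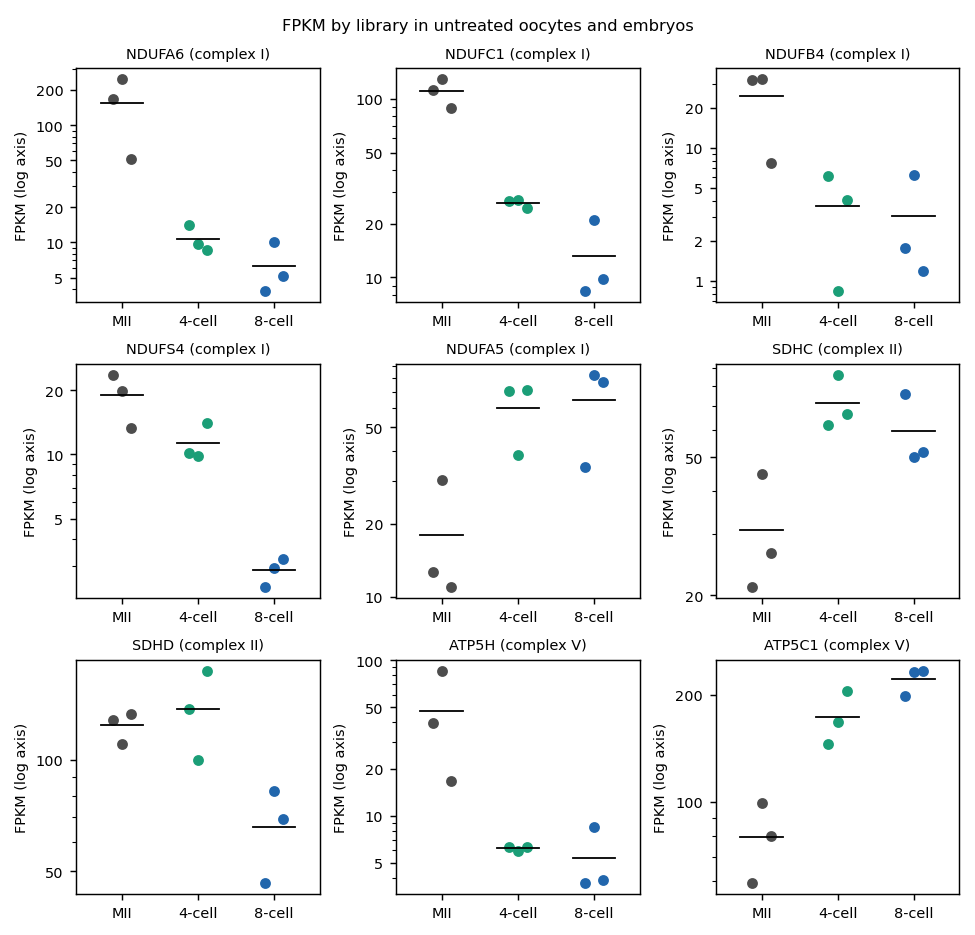
FPKM (log axis, range set per gene) of 9 genes in the 3 libraries each of MII oocytes and of 4- and 8-cell stage embryos, with points for libraries and a bar for the mean. NDUFA6, NDUFC1, NDUFB4 and ATP5H lie lower in all embryo libraries, NDUFA5, SDHC and ATP5C1 lie higher, and NDUFS4 and SDHD are lowest at the 8-cell stage.

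In 8-cell stage embryos, when the embryonic genome becomes active in goat, 21 of the 56 genes were lower and 5 were higher than in the MII oocytes. Among all 9090 genes 10.0% were lower and 27.3% higher, against 37.5% and 8.93% of the 56 genes. The median log2 fold change was -0.79 for the 56 genes and 0.37 for all genes, and -0.95, -0.09 and -0.41 for complexes I, II and V. Without MII replicate 2 the medians of complexes I and V were -0.62 and -0.09, and without MII replicate 3 they were -1.57 and -0.65. With the trend of the log2 level on transcript length removed in each library before the fit, that of complex V was 0.02. The median of complex II, over 4 genes, ranged from -0.52 to 0.29 when 1 library was left out, the ends being those that lacked replicate 1 and replicate 2 of the 8-cell embryos. All 8-cell libraries lay below all MII libraries for 23 genes (13.7% of all genes) and above them for 9 (36.4% of all genes). By the rule of the study 21 were lower and 3 higher, against 8.14% and 19.8% of all genes. The MII libraries are shared with the comparison above, so both sets of calls are not independent.

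*NDUFA6* was at 3.82, 9.97 and 5.19 FPKM in the 8-cell stage embryos, a log2 fold change of -4.24 ± 0.53 against the MII oocytes with an adjusted p of 0.000391. *NDUFC1* was at 8.36, 21.1 and 9.83 FPKM (-3.07 ± 0.30, adjusted p of 0.000127) and *NDUFB4* at 1.78, 6.20 and 1.19 FPKM (-2.61 ± 0.69, adjusted p of 0.0153). Replicate 2 of the 8-cell embryos was the highest for all 3 genes and still lay below every MII library. *NDUFS4*, an accessory subunit needed for the stability of the NADH-oxidizing module, was at 23.6, 19.9 and 13.4 FPKM in MII and 2.39, 2.95 and 3.26 FPKM at the 8-cell stage, with -2.34 ± 0.25 and an adjusted p of 0.000190. The call of *NDUFB4* was lost without MII replicate 1 (adjusted p of 0.062) or 8-cell replicate 3 (0.060).

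The falls in complex I lay among accessory subunits. Of 29 accessory subunits tested, 16 fell and 2 rose at the 8-cell stage, with a median log2 fold change of -1.62. These include *NDUFA4*, without which 15 of 28 fell, with a median of -1.57. Of the 7 core subunits none fell and 1 rose at the 8-cell stage, with a median of -0.26. At the 4-cell stage 12 accessory subunits fell and 2 rose (median -0.89), and none of the core subunits fell and 1 rose (median 0.30). Of all genes 10.0% fell and 27.3% rose at the 8-cell and 6.42% and 24.7% at the 4-cell stage, so that no fall among 7 core subunits is near the share of all genes. The difference between these classes was not tested. The exon length behind the FPKM values had a median of 676 bases for accessory and 1611 bases for core subunits, and the part of length in this difference was not tested. Among core subunits, only *NDUFV2*, which carries an iron-sulfur cluster of the NADH-oxidizing module, was called, from 14.0, 14.0 and 11.9 FPKM in MII to 18.6, 24.7 and 28.4 FPKM at the 8-cell stage (0.78 ± 0.20, adjusted p of 0.0140). This call was lost without MII replicate 3 (adjusted p of 0.052) or 8-cell replicate 3 (0.058). *NDUFV1*, *NDUFS3*, *NDUFS7* and *NDUFS8* had adjusted p of 0.212 to 0.692, and *NDUFS1* of 0.0548.

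Among the rises, *NDUFA5* was at 34.3, 82.3 and 77.1 FPKM at the 8-cell stage (1.83 ± 0.45, adjusted p of 0.0108) and *NDUFB2* at 12.7, 18.4 and 13.3 FPKM (1.27 ± 0.33, adjusted p of 0.0137). *ATP5C1* stood at 199, 232 and 233 FPKM, above all MII libraries and overlapping with the highest 4-cell library (1.49 ± 0.21, adjusted p of 0.000749). *SDHC* was at 76.1, 50.1 and 51.9 FPKM (0.97 ± 0.29, adjusted p of 0.0253). All 8-cell values of these 4 genes lay above all MII values. The call of *NDUFB2* was lost without MII replicate 1 or 3 (adjusted p of 0.054 and 0.050) and that of *SDHC* without MII replicate 1 or 3 or 8-cell replicate 1 (0.058 to 0.10).

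*SDHD* fell from 128, 110.3 and 133 FPKM in MII to 46.5, 82.4 and 69.3 FPKM (-0.93 ± 0.26, adjusted p of 0.0184), so that both anchors of complex II, *SDHC* and *SDHD*, were called in opposite directions. The *SDHD* call was lost without MII replicate 1 (adjusted p of 0.061) or 3 (0.060). *SDHB* was at 8.84, 5.86 and 8.12 FPKM, below all MII libraries but with an adjusted p of 0.114. *SDHA* was at 0.993, 1.70 and 1.40 FPKM in MII and at 7.49, 0.285 and 1.36 FPKM at the 8-cell stage, where replicate 1 stood far above the others. The same replicate was the highest for *NDUFV1*, at 9.90 FPKM against 0.271 and 1.43. Without it, the log2 fold changes of *SDHA* and *NDUFV1* against MII turned from 0.33 to -0.43 and from 0.41 to -0.46.

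In complex V, *ATP5H* was at 3.69, 8.53 and 3.89 FPKM at the 8-cell stage (-2.71 ± 0.51, adjusted p of 0.00287), and *ATP5J*, given above, fell by 0.99 ± 0.29 on the log2 scale (adjusted p of 0.0241). *ATP5B* was at 3.17, 2.26 and 3.17 FPKM (-1.06 ± 0.28, adjusted p of 0.0155) and *ATP5I*, the e subunit of the membrane part, fell as well. The values of *ATP5H* and *ATP5B* in 8-cell embryos overlapped those in 4-cell embryos. The calls were lost for *ATP5J* without MII replicate 1 or 3 or 8-cell replicate 1 or 3 (adjusted p of 0.054 to 0.085) and for *ATP5B* without MII replicate 1 or 2 (0.060 and 0.055). With the trend on transcript length removed the log2 fold change of *ATP5J* was -0.20, with an adjusted p of 0.67, and its call was also lost with no filter on low values (0.055) and with the replicate block (0.053). *ATP5A1* was at 35.7, 32.8 and 40.2 FPKM, above all MII and below all 4-cell libraries, with an adjusted p of 0.0923 against MII. The head genes *ATP5D* and *ATP5E* and the c subunit genes had adjusted p of 0.170 to 0.717.

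Between the 4- and the 8-cell stage, 2 of the 56 genes fell and none rose, against 5.24% and 3.06% of all genes tested. An unadjusted p under 0.05 was reached by 9 of the 56 genes, of which 8 were lower, and by 2206 of all 9090 genes tested (24.3%). The median log2 fold change was -0.46 for the 56 genes and 0.07 for all genes. *NDUFS4* was at 10.2, 9.89 and 14.1 FPKM at the 4-cell stage, overlapping with its MII values and above all of its 8-cell values, and fell between these embryos by 1.67 ± 0.25 on the log2 scale (adjusted p of 0.00781). *SDHD* was at 137, 99.7 and 173 FPKM at the 4-cell stage and fell by 1.04 ± 0.26 (adjusted p of 0.0389). Both genes have groups that lie apart, but the *SDHD* call was lost in 7 of the 9 fits that left out 1 library, all but those without 4-cell replicate 2 or 8-cell replicate 2, with adjusted p of 0.051 to 0.13. The *SDHD* call was also lost with no filter on low values, median-ratio rescaling, a common sum, limma without trend and the replicate block. Of the 56 genes 20 had all 8-cell libraries below all 4-cell libraries (35.7%, against 16.6% of all genes) and 1 had them above (11.6% of all genes). By the rule of the study 4 were lower and 1 higher, against 4.28% and 4.55% of all genes.

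One MII library stood apart for these genes. Replicate 2 of the MII oocytes held the highest MII value for 47 of the 56 genes, which is 83.9% against 47.2% of all genes tested, and was over 2-fold above both other replicates for 22 of them (39.3% against 9.69%). *NDUFA8*, an accessory subunit of the intermembrane space side, was at 99.7 FPKM there and at 9.94 and 9.18 FPKM in the other replicates. *ATP5J2*, a subunit of the membrane part of ATP synthase, was at 66.7 FPKM against 6.53 and 1.22 FPKM. Without this library 9 of the genes were called lower and 12 higher at the 4-cell stage, with a median of 0.02, and 18 lower and 8 higher at the 8-cell stage, with a median of -0.46. The medians of all genes were 0.35 and 0.43 in the fit without this library, so those of the members lay below them at both stages. Whether more of the called members were lower or higher at the 4-cell stage thus depended on this library, and at the 8-cell stage it did not. Other libraries also moved the counts, which were 9 lower at the 4-cell stage without 4-cell replicate 2 or 3, 4 higher without MII replicate 1 or 4-cell replicate 1, and 13 lower at the 8-cell stage without 8-cell replicate 3 and 3 higher without MII replicate 1 or 3.

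The scaling changed the rises more than the falls. With libraries rescaled by median ratios, to a common sum or by quantiles, which brought the median of all genes to -0.13 to 0.06 in 4-cell and 0.03 to 0.06 in 8-cell embryos, 0 to 3 of the 56 genes rose in the former and 2 in the latter. Calls over all 9090 genes, in either direction, were fewer too. They numbered 2005 to 2181 instead of 2833 in 4-cell and 2708 to 2975 instead of 3398 in 8-cell embryos. In 8-cell embryos the rises of *ATP5C1* and *NDUFA5* passed under all 3 rescalings, while those of *NDUFB2*, *NDUFV2* and *SDHC* did not pass under any of them.

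**Figure D3:**
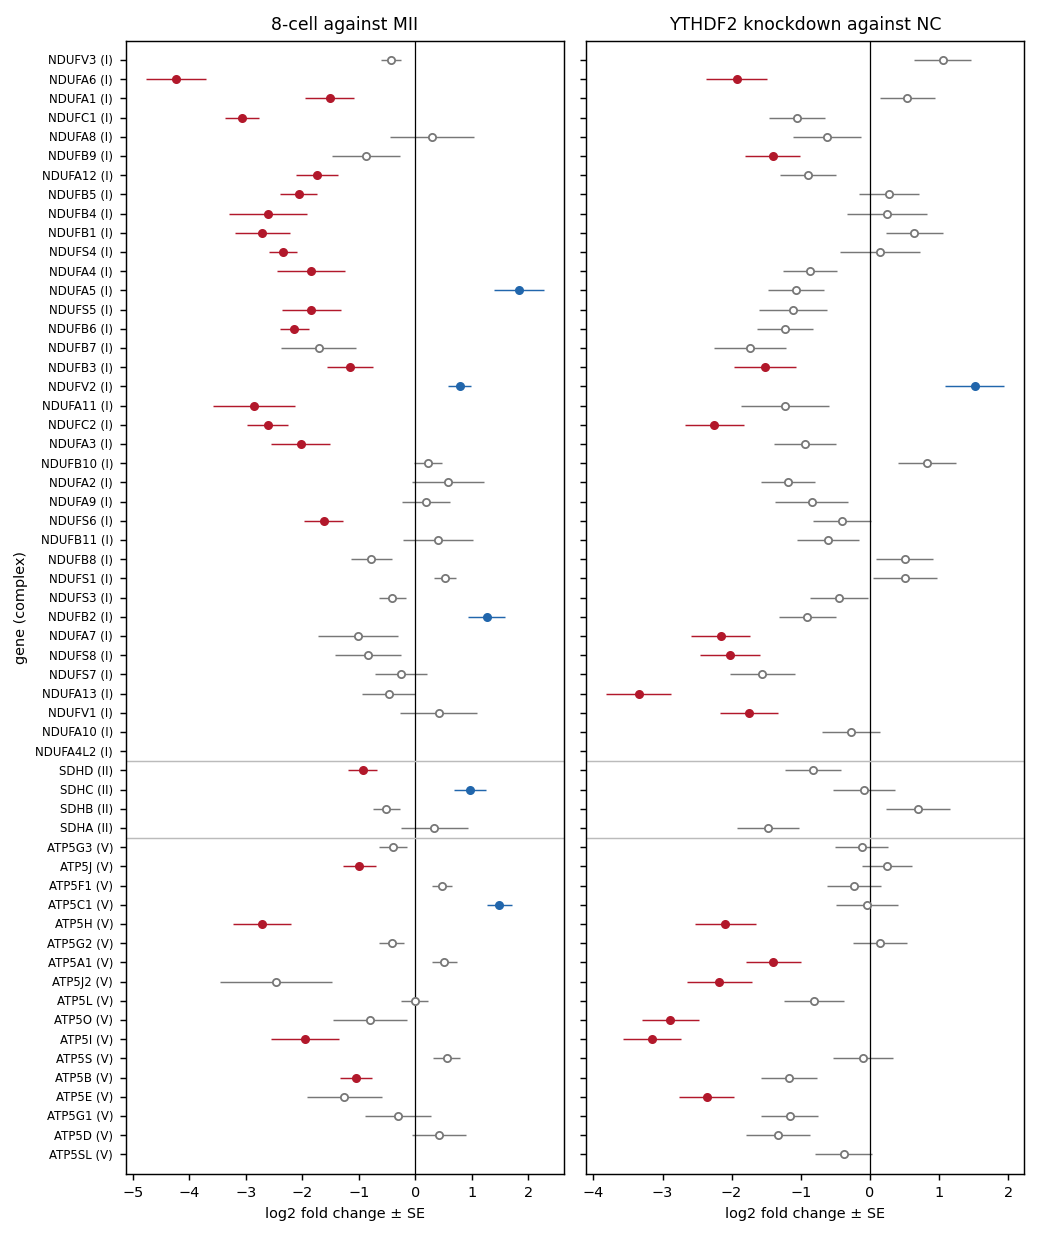
Log2 fold change ± SE (limma, on log2(FPKM + 1)) of 58 of the 59 genes where tested, for the 8-cell stage against MII oocytes and for YTHDF2 knockdown against NC embryos. Filled red points were called lower, filled blue points higher, and open points did not pass the adjusted p of 0.05, with 21 lower and 5 higher on the left and 14 lower and 1 higher on the right.

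Knockdown of *YTHDF2* was compared with NC siRNA in 8-cell stage embryos, and 58 of the 59 genes were tested there. Of these, 14 were lower and 1 was higher after knockdown, with 24.1% of the genes lower against 5.92% of all 11004 genes tested, and 1.72% higher against 2.06%. The median log2 fold change was -0.88 over the 58 genes and 0.01 over all genes, and -0.89, -0.45 and -1.16 for complexes I, II and V. That of complex I was -0.52 without NC replicate 1, and that of complex II was -0.20 without knockdown replicate 1 and -0.70 without knockdown replicate 2. The 59 genes took 1.11 and 0.981% of all FPKM in the NC libraries and 0.651 and 0.618% in the knockdown libraries. In 34 of the 58 genes both knockdown values lay below both NC values (58.6%, against 30.7% of all genes), and in 6 both lay above (30.3% of all genes). By the rule of the study 25 were lower and 2 higher, against 15.3% and 9.48% of all genes. The oocyte markers summed to 1562 to 2593 FPKM in NC and 3242 to 5239 FPKM in knockdown libraries, and the cumulus cell markers to 35.0 to 36.6 against 66.8 to 68.8 FPKM. Both sums were thus higher in the knockdown libraries. Markers of blood cells summed to 3.77 to 4.32 FPKM over 2 genes in NC and 0.95 to 1.25 FPKM in knockdown libraries. Only *CD68* was lower there (3.19 and 3.92 against 0.71 and 0.30 FPKM), while *PTPRC* overlapped (0.58 and 0.40 against 0.54 and 0.65 FPKM). Those of sperm summed to 12.7 to 21.7 and 5.13 to 27.1 FPKM over 6 genes, which overlap. The part of these lists in the result was not tested.

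In complex I, *NDUFA13* (also known as GRIM-19, an accessory subunit with a role in cell death) was at 40.7 and 41.4 FPKM in NC and at 1.69 and 5.36 FPKM in knockdown embryos. The groups lie far apart, with a log2 fold change of -3.35 ± 0.47 and an adjusted p of 0.00247. *NDUFC2*, the partner of *NDUFC1*, was at 23.8 and 21.1 FPKM in NC and at 4.66 and 3.26 FPKM after knockdown (-2.25 ± 0.42, adjusted p of 0.00901). *NDUFA7*, an accessory subunit, was at 54.7 and 32.6 FPKM in NC and at 9.08 and 8.32 FPKM after knockdown (-2.16 ± 0.43, adjusted p of 0.0115). In the latter 2 genes the knockdown values lay close together, and the call of *NDUFA7* was lost without NC replicate 1 (adjusted p of 0.072). Of the accessory subunits 6 of 30 fell and none rose, with a median of -0.90.

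Core subunits of complex I were called in both directions. *NDUFV1*, the NADH-binding subunit, was at 5.25 and 5.71 FPKM in NC and at 1.29 and 0.62 FPKM after knockdown (-1.75 ± 0.42, adjusted p of 0.0254). *NDUFS8*, an iron-sulfur subunit, was at 9.64 and 6.78 FPKM in NC and at 1.65 and 0.90 FPKM after knockdown (-2.02 ± 0.43, adjusted p of 0.0160). *NDUFV2*, which pairs with *NDUFV1* in the same module, was at 6.93 and 5.52 FPKM in NC and at 15.7 and 24.3 FPKM after knockdown (1.52 ± 0.43, adjusted p of 0.0453). The 2 libraries of each group lie apart for all 3 genes, so the partners *NDUFV1* and *NDUFV2* moved in opposite directions. The call of *NDUFV2* was lost with a pseudocount of 0.1, no filter on low values, median-ratio rescaling, quantile normalization and the replicate block. That of *NDUFV1* was lost with no filter and with quantile normalization, and that of *NDUFS8* with no filter. When 1 library was left out, the log2 fold change was 1.21 to 1.82 for *NDUFV2*, -2.0 to -1.5 for *NDUFV1* and -2.26 to -1.78 for *NDUFS8*. *NDUFS1*, *NDUFS3* and *NDUFS7* had adjusted p of 0.0544 to 0.485.

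No gene of complex II passed the test. *SDHA* was at 6.32 and 6.23 FPKM in NC and at 2.48 and 0.97 FPKM after knockdown, with a log2 fold change of -1.47 ± 0.44 and an adjusted p of 0.0540. *SDHD* was at 112.6 and 171 FPKM in NC and 67.7 and 89.8 FPKM after knockdown (adjusted p of 0.188). The groups of *SDHA* and *SDHD* lie apart, and those of *SDHB* and *SDHC* overlap, with adjusted p of 0.323 and 0.915.

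Complex V had 6 of the 14 falls. *ATP5I* was at 88.1 and 57.5 FPKM in NC and at 7.11 and 7.21 FPKM after knockdown, a log2 fold change of -3.15 ± 0.42 with an adjusted p of 0.00227. *ATP5O*, the subunit that links the head to the peripheral stalk (OSCP), was at 176 and 109.9 FPKM in NC and at 17.5 and 18.3 FPKM after knockdown (-2.89 ± 0.41, adjusted p of 0.00247). *ATP5E* was at 685 and 459 FPKM in NC and at 135 and 87.1 FPKM after knockdown (-2.36 ± 0.40, adjusted p of 0.00582). For all 3 genes each knockdown value was well under each NC value. The head subunit *ATP5A1* was at 189.9 and 120.0 FPKM in NC and at 57.9 and 55.8 FPKM after knockdown (-1.39 ± 0.40, adjusted p of 0.0467). This call was lost with a pseudocount of 0.1, with no filter on low values, with limma without trend and with the replicate block. It was also lost with median-ratio rescaling, a common sum and quantile normalization. Its log2 fold change was -1.72 to -1.07 when 1 library was left out. *ATP5H* and *ATP5J2* fell too, *ATP5B* and *ATP5D* had log2 fold changes of -1.17 and -1.33 with adjusted p of 0.0836 and 0.0847, and *ATP5C1* was at 84.1 and 43.7 FPKM in NC and 44.3 and 78.3 FPKM after knockdown. The abundant *ATP5G3* and *ATP5J* were at 504 and 329 and at 488 and 480.5 FPKM in NC, and at 332 and 423 and at 522 and 635 FPKM after knockdown, with adjusted p of 0.859 and 0.662.

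**Figure D4:**
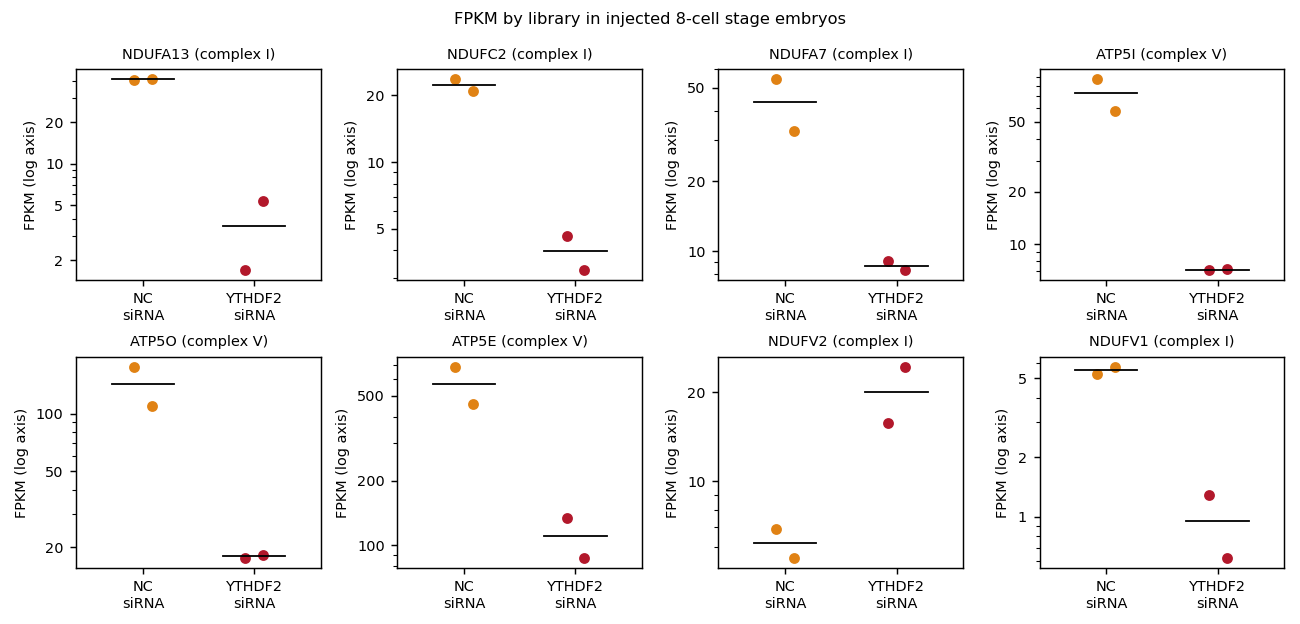
FPKM (log axis, range set per gene) of 8 genes in the 2 NC and the 2 YTHDF2 siRNA libraries of 8-cell stage embryos, with points for libraries and a bar for the mean. NDUFV2 is higher in both knockdown libraries, and the other 7 genes are lower in both.

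With 2 libraries a group, leaving 1 out leaves a lone library in its group. The number of called genes then moved with each library, among these genes and over all genes. The median stayed between -0.61 and -0.88 when 1 library was left out. With genes of low values kept in the test, limma called none of 20357 genes, with 3731 genes and 28 of the oxidative phosphorylation genes (26 of them lower) at an unadjusted p under 0.05.

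The stage and the knockdown comparison use no library in common. Of the 21 genes lower at the 8-cell stage than in MII, 5 were also lower after knockdown (*ATP5H*, *ATP5I*, *NDUFA6*, *NDUFB3* and *NDUFC2*), which is 5 of 21 and 5 of 14. Of all 58 genes tested in the knockdown 24.1% were lower there, and nothing is read from this overlap. *NDUFA6* was at 273 and 161 FPKM in NC and at 38.8 and 76.0 FPKM after knockdown (-1.93 ± 0.44, adjusted p of 0.0204). The other 9 genes lower after knockdown were not called at the 8-cell stage. *NDUFV2* was the 1 gene higher in both. In turn, 6 of the 21 genes had log2 fold changes above 0 after knockdown (*ATP5J*, *NDUFA1*, *NDUFB1*, *NDUFB4*, *NDUFB5* and *NDUFS4*), none of them called.

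Fold change varied with transcript length among these genes. Their exon length had a median of 848 bases, against 2836 bases for all genes tested. Across the 56 genes the log2 fold change and the length had a Spearman rho of 0.61 for 4-cell and 0.67 for 8-cell embryos against MII, where it was 0.11 for all genes in both cases, and 0.30 across 58 genes after knockdown, where it was 0.15 for all genes. These are correlations across genes that share libraries, so genes are not independent replicates. With the trend on length over all genes removed, 11 of the genes were lower and 9 higher in 4-cell embryos and 16 lower and 7 higher in 8-cell embryos, with medians of 0.08 and -0.34 against 0.27 and 0.34 for all genes. Of all 9080 genes then tested, 2773 and 3319 were called in either direction. In the knockdown the same step, chosen after seeing the data, left 12 lower and 1 higher, with a median of -0.63 against -0.0019 for all genes. There 858 of all 10283 genes were called.

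**Figure D5:**
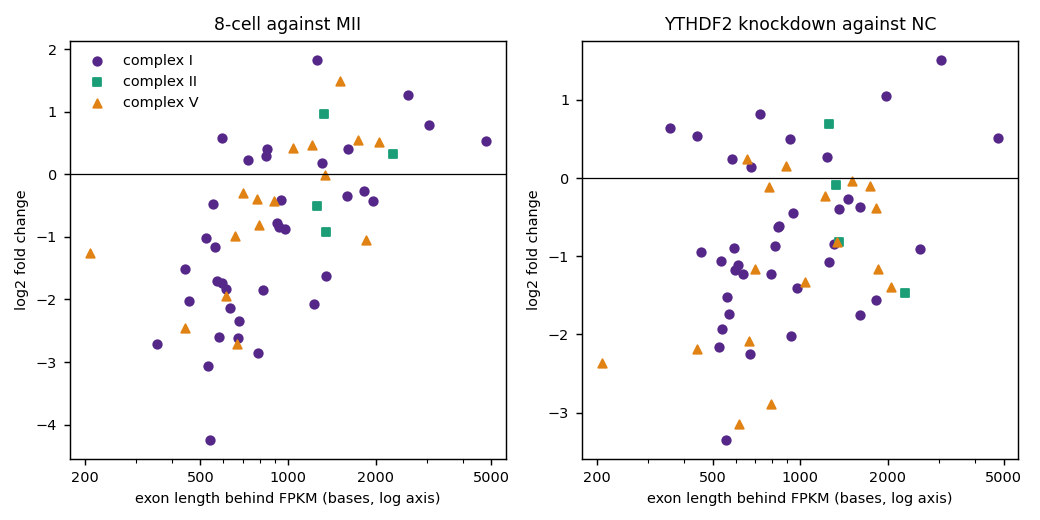
Log2 fold change of each gene against the exon length behind its FPKM (bases, log axis), for the 8-cell stage against MII oocytes (56 genes) and for YTHDF2 knockdown against NC (58 genes), with a symbol per complex. Short genes lie lower on the left (Spearman rho of 0.67), and the relation is looser on the right (0.30).

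Other genes of the pathway were counted over whole lists. Of the assembly factors of the complexes 20 were tested at the stages. Of these 1 fell and 3 rose in 4-cell embryos, where 6.42% of all genes fell and 24.7% rose. In 8-cell embryos 4 fell and 3 rose, with a median of -0.08, where 10.0% of all genes fell and 27.3% rose. Against MII oocytes, the complex II factor *SDHAF2*, which helps to attach the flavin to *SDHA*, fell from 59.4, 67.3 and 56.4 FPKM to 16.1, 8.55 and 11.1 FPKM at the 8-cell stage (-2.30 ± 0.24, adjusted p of 0.000151), and *SDHAF3* and *SDHAF4*, which mature *SDHB* and *SDHA*, fell as well. The complex I factor *NDUFAF1* was at 41.1, 43.4 and 32.3 FPKM in MII, at 40.6, 35.6 and 48.0 FPKM in 4-cell embryos and at 6.46, 9.56 and 10.9 FPKM in 8-cell embryos (-2.02 ± 0.23 against MII, adjusted p of 0.000226). *NDUFAF4*, also of complex I, rose from 93.7, 81.0 and 129 FPKM to 167, 305 and 264 FPKM (1.25 ± 0.28, adjusted p of 0.00653). All 3 genes have groups that lie apart between MII and the 8-cell stage.

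After knockdown 4 of 23 assembly factors fell and 1 rose, against 5.92% and 2.06% of all genes. *PET100*, a factor of complex IV, was at 62.3 and 68.4 FPKM in NC and at 8.03 and 7.11 FPKM after knockdown (-2.95 ± 0.41, adjusted p of 0.00240), and *TMEM70*, a factor of ATP synthase, had means of 125 and 24.7 FPKM (-2.29 ± 0.39, adjusted p of 0.00598). *NDUFAF8* and *TMEM126B*, both of complex I, also fell, and *CMC1* of complex IV rose. Of the transcription factors and genes of mitochondrial DNA maintenance, 8 were tested at the stages and 10 in the knockdown. Of the 8, 3 rose and 2 fell in 4-cell embryos and 3 rose and 1 fell in 8-cell embryos, and of the 10, 2 fell and none rose after knockdown. Of all genes 24.7% rose and 6.42% fell in 4-cell embryos, 27.3% and 10.0% in 8-cell embryos and 2.06% and 5.92% after knockdown, and with so few genes in the list nothing is read from its counts. *PPARGC1A*, a coactivator of mitochondrial genes, had log2 fold changes against MII of 1.38 in 4-cell and 2.11 in 8-cell embryos (adjusted p of 0.00351 and 0.000317), and *GABPA* and *YY1*, which bind promoters of oxidative phosphorylation genes, rose at both stages. *POLG2*, a subunit of the mitochondrial DNA polymerase, fell at both stages. *TFB1M*, which methylates mitochondrial ribosomal RNA, fell in 4-cell embryos (-1.09 ± 0.30, adjusted p of 0.0230) and had a log2 fold change of 1.23 after knockdown, with an adjusted p of 0.0796. After knockdown *TFAM* and *TFB2M*, needed for transcription of mitochondrial DNA, fell to means of 6.31 and 19.9 FPKM from 22.6 and 70.4 FPKM (adjusted p of 0.0355 and 0.0418).

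Of the 59 genes 21 were called in none of the 4 comparisons. They include *NDUFV3*, at 151 to 217 FPKM in MII and 113 to 135 FPKM at the 8-cell stage, and *ATP5F1*, the b subunit of the peripheral stalk, at 139 to 206 FPKM in MII and 211 to 233 FPKM at the 8-cell stage with an adjusted p of 0.0599. *NDUFA4L2*, a paralogue of *NDUFA4*, was at 0 to 0.526 FPKM in all libraries and not tested, and *NDUFA10* and *ATP5SL* were too low for the test at the stages.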

How the data were processed

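Smart-seq2 libraries of polyA RNA were used as deposited. The authors aligned reads to goat genome ARS1 with HISAT2, counted uniquely mapped reads with HTSeq and deposited FPKM values per gene and library. Repeated names were dropped, leaving 18159 names for the untreated and 27121 for the injected libraries. Fragments were recovered from the steps of the FPKM values (17903 of 17918 genes above 0, each value within at most 0.02 of a whole number). Genes whose mean reached 1 FPKM were fitted on log2(FPKM + 1), whose fold changes understate those of low genes, with limma 3.58.1 in R 4.3.3 (eBayes with trend, two-sided), the 9 untreated and the 4 injected libraries apart, with no test across them. Calls have a Benjamini-Hochberg adjusted p under 0.05 over all genes tested. DESeq2, which the authors used, was not run. The script tests ran on simulated data. Members and lists were chosen with earlier results of these data known. Named were, per comparison and complex, up to 3 called rises and falls furthest from 0 whose mean reached 10 FPKM and whose groups lay apart, all genes of complex II, core subunits of complex I, and head and c subunits of complex V. Other genes (such as *NDUFA8*, *ATP5J2*, *NDUFV3* and *ATP5F1*) were singled out after their values were seen. Alternatives were other pseudocounts, filters, scalings and fits. Python 3.11.15 with pandas 2.3.3 was used for the rest. Replicate numbers are shared between groups, but the deviations of same-numbered libraries from their group means correlated with mixed signs, from -0.508 to 0.201 in the untreated libraries and at -0.152 in the injected ones, so the numbers were not used as pairs. The values of 1 gene among the 59 are not reported here, though it is counted in the totals.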

Additional observations from a re-analysis of the deposited data

How the results depend on the processing

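The depth of the injected libraries is unknown, each of their groups has 2 libraries, and a lone library left in a group is assumed to vary like the others. The falls against MII of *NDUFA6*, *NDUFC1* and *ATP5H* at both stages and those after knockdown of *NDUFA13*, *ATP5I* and *ATP5O* kept their direction under every alternative run, and the causes of the changes below were not tested. Of 1472 values of named genes under alternatives, 1293 kept direction and side of the threshold, 108 lost it, 24 gained it and 47 turned. The replicate numbers were not taken to pair the libraries. With the replicate block 6 genes rose and 14 fell in 4-cell embryos against MII, 5 and 19 in 8-cell embryos, 0 and 1 between the stages, and 0 and 10 after knockdown. The block called 2337, 2944 and 311 of all 9090 genes in the stage comparisons and 461 of all 11004 after knockdown, in either direction. With the numbers crossed, an alternative added after seeing the data, 2 rose and 25 fell after knockdown. Calls over all 11004 genes went up as well, to 2107 from 878 in the main fit.

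Without the filter on low values 9 genes were lower at the 4-cell stage than in MII, 1 lower between the stages, and 0 lower and 0 higher after knockdown. Of all 17918 genes then tested at the stages, 2502 and 655 were called in these 2 comparisons, and 0 of 20357 after knockdown. A pseudocount of 0.1 gave 0 higher after knockdown and a log2 fold change of *NDUFV1* between the stages of -0.185. Without the trend in limma 1 gene was lower between the stages. After knockdown, median-ratio rescaling, a common sum and quantile normalization called 430, 861 and 286 of all 11004 genes, against 878 in the main fit. Median-ratio rescaling gave 2 higher genes in 4-cell and 2 in 8-cell embryos, 0 after knockdown, a complex II median at the 8-cell stage of -0.397, and 4-cell values of -0.0254 for *ATP5G2*, -0.125 for *NDUFS3* and -0.186 for *SDHD*. A common sum gave 0 and 2 higher genes, 1 lower between the stages, 4-cell medians of -0.574 for all and -0.404 for complex II, an 8-cell median of complex II of -0.406, and 4-cell values of -0.00439 for *ATP5G1*, -0.259 for *ATP5G2*, -0.337 for *NDUFS3*, -0.0209 for *NDUFV1*, -0.128 for *NDUFV2* and -0.424 for *SDHD*. Quantile normalization gave 3 and 2 higher genes, 0 higher and 7 lower after knockdown, 4-cell medians of -0.543 for all and -0.288 for complex II, an 8-cell median of complex II of -0.424, 4-cell values of -0.151 for *ATP5G2*, -0.132 for *NDUFS3* and -0.386 for *SDHD*, -0.0273 for *NDUFV1* between the stages, and 0.0619 for *ATP5C1* and 0.138 for *ATP5G3* after knockdown.

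With the length trend removed, 1 gene was higher and 4 lower between the stages, where 783 of all 9080 genes were called. The 8-cell medians were -0.34 for all and -0.435 for complex I, the values of *ATP5G3* were 0.363 in 4-cell and 0.22 in 8-cell embryos, and those of *ATP5G1* and *ATP5G2* at the 8-cell stage 0.43 and 0.035. In the knockdown, where removal of the length trend was added after seeing the data, the medians were -0.63 for all, -0.556 for complex I and -0.781 for complex V, with 0.0688 for *ATP5C1*, 0.216 for *ATP5G3* and 0.0504 for *SDHC*. The rule of the study gave 3 higher genes at the 8-cell stage, 1 higher and 4 lower between the stages, and 2 higher and 25 lower after knockdown.

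With each library left out in turn, values ranged for the 4-cell stage against MII from 4 to 12 for the number of genes called higher, 9 to 18 for the number of genes called lower, -0.125 to 1.21 for *ATP5G1*, -0.195 to 0.0959 for *ATP5G3*, -0.0447 to 0.341 for *NDUFS3*, -0.304 to 0.17 for *SDHA* and -0.0763 to 0.32 for *SDHD*. With each library left out in turn, values ranged for the 8-cell stage against MII from 3 to 8 for the number of genes called higher, 13 to 22 for the number of genes called lower, -1.57 to -0.619 for the median of complex I, -0.524 to 0.287 for the median of complex II, -0.00206 to 0.759 for *ATP5D*, -0.822 to 0.514 for *ATP5G1*, -0.606 to 0.349 for *NDUFS7*, -0.464 to 1.09 for *NDUFV1* and -0.431 to 0.932 for *SDHA*. With each library left out in turn, values ranged for the 8-cell against the 4-cell stage from 0 to 1 for the number of genes called higher, 1 to 3 for the number of genes called lower, -0.407 to 0.252 for the median of complex II, -0.942 to 0.135 for *NDUFS8*, -0.765 to 0.785 for *NDUFV1* and -0.347 to 1.01 for *SDHA*. With each library left out in turn, values ranged for the knockdown from 0 to 2 for the number of genes called higher, 6 to 20 for the number of genes called lower, -0.877 to -0.613 for the median of all, -0.951 to -0.519 for the median of complex I, -0.506 to 0.425 for *ATP5C1*, -0.034 to 0.333 for *ATP5G2*, -0.425 to 0.188 for *ATP5G3*, -0.0374 to 1.06 for *NDUFS1* and -0.497 to 0.329 for *SDHC*.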

Other observations

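The control embryos of the injection experiment and the untreated 8-cell embryos differed in level for many of these genes. Both sets were normalized apart, so the values are given side by side with no test. The NC mean was above the untreated 8-cell mean for 47 of the 59 genes, and the median FPKM over the genes was 45.0 in NC and 5.37 in untreated embryos. *ATP5E* was listed at 0.634 to 2.62 FPKM in the untreated 8-cell libraries, where it rested on 4 to 15 fragments, and at 459 and 685 FPKM in NC. *NDUFA4* stood at 2.02 to 12.3 FPKM and at 730 and 1034 FPKM, and *NDUFA2* at 7.49 to 13.8 FPKM and at 290 and 470.0 FPKM. In the other direction, *ATP5C1* was at 199 to 233 FPKM in the untreated libraries and at 43.7 and 84.1 FPKM in NC, and *NDUFV3* at 113 to 135 and at 37.8 and 52.3 FPKM. The difference on the log2 scale had a median of 3.80 for the 30 genes of shorter and 1.09 for the 29 genes of longer exon length, with a Spearman rho with length of -0.61 across the 59 genes. Study, injection and normalization differ together here and cannot be told apart.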
